A study of Mus musculus with 4 samples.

Results

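The kinetochore is the protein assembly that joins each centromere to spindle microtubules, and the spindle checkpoint holds cells before anaphase until every kinetochore is attached. A histone H3 variant, CENP-A, marks the centromere. An inner network of CENP proteins sits on it, and the MIS12 complex joins that network to the outer kinetochore. There the NDC80 complex grips microtubules, and BUB, MAD and TTK proteins signal from unattached kinetochores. Most of these genes are transcribed late in the cell cycle of dividing cells, and trophoblast giant cells of the early embryo replicate DNA without dividing.

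Of 43 listed kinetochore and spindle checkpoint genes, 39 had a row of the array table annotated with that gene symbol alone. They are 39 of the 30142 genes tested. The rows naming Cenpb, Cenpu and Hjurp carry several symbols, and no row carries the symbol Sgol2a, so these 4 were left out of all counts. RNA came from mouse blastocyst-derived outgrowths, made by culturing blastocysts of 3.5 days post coitum one by one for 4 to 6 days in a serum-replacement embryonic stem cell medium (KOSR-ESCM). The embryos came from Tip110+/- intercrosses. Tip110 is Sart3, which encodes a factor that recycles U4 and U6 snRNAs in splicing. Neither genotype was treated, and 2 Tip110-/- arrays were compared with 2 wild-type arrays. Replicate 1 of either genotype pooled 3 outgrowths, while replicate 2 was 1 outgrowth, and each array mixes descendants of the inner cell mass with trophoblast. The comparison asks how loss of Tip110 alters the transcripts of these embryonic cells.

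Signal is on the log2 scale as deposited, and differences are Tip110-/- minus wild-type on that scale. The median of the antigenomic background rows, whose probes match no genomic sequence, was 2.94 to 3.05 in Tip110-/- and 2.82 to 2.83 in wild-type arrays, and a difference that reaches down to such levels is compressed. The median of the rows marked as positive controls, which on such arrays usually target exons of genes active in most tissues, was 8.69 and 9.51 in Tip110-/- replicates 1 and 2, against 9.80 and 9.66 in wild-type. RNA per outgrowth was 55.0 and 144 pg in Tip110-/- outgrowths, against 249 and 178 pg in wild-type. Each array used 144 pg of RNA, so the stated input was equal. RNA yield and array signal still differ with genotype and cannot be told apart from it. Sart3 itself was at 4.28 and 4.54 in Tip110-/- and at 4.94 and 5.98 in wild-type, a difference of -1.05 ± 0.39 (SE). Sart3 was lower in both Tip110-/- arrays, where its signal was close to the medians of the negative control rows, 4.28 and 4.18. Whether its probes lie in the deleted part is not stated.

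Of the 39 genes, 13 were lower in Tip110-/- outgrowths at an unadjusted p under 0.05 in limma, 0 were higher and 26 did not pass. Over all genes tested, 3.67% were lower and 8.99% higher by the same rule. Among protein-coding genes brighter on average than the table's median row, a set that holds 37 of the 39 members, 7.14% were lower. The share that was higher in that set was not computed. The 13 were Cenpa of the centromeric nucleosome, the inner kinetochore genes Cenpm, Cenpn, Cenph, Cenpp and Cenpt, Spc24 and Ndc80 of the microtubule-binding NDC80 complex, Ska1, Zwilch, the checkpoint genes Bub1 and Bub1b, and Cenpj. After adjustment over all genes, 0 members and 0% of genes passed at 0.05 (limma adjusted p of the members 0.284 to 0.994).

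The median difference of the 39 genes was -0.84, a 1.79-fold lower signal, beside 0.15 for all genes and 0.01 for protein-coding genes above the median row. A difference of at least 2-fold toward lower signal was seen in 18 of the 39, beside 11.3% of protein-coding genes above the median row. Both Tip110-/- arrays lay below both wild-type arrays in 20 of the 39, beside 12.9% of all genes and 23.9% of protein-coding genes above the median row. The opposite arrangement held for 2 of the 39, beside 39.9% of all genes. That share covers genes of any brightness, and it was not computed for protein-coding genes above the median row. The negative control rows were also brighter on Tip110-/- arrays, with medians of 4.28 and 4.18 against 3.98 and 4.03 in wild-type. The median over the 39 genes was 6.18 and 5.68 in Tip110-/- replicates 1 and 2, against 7.37 and 7.49 in wild-type. In these whole outgrowths, fewer dividing cells and less RNA of these genes per cell cannot be told apart.

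**Figure D1:**
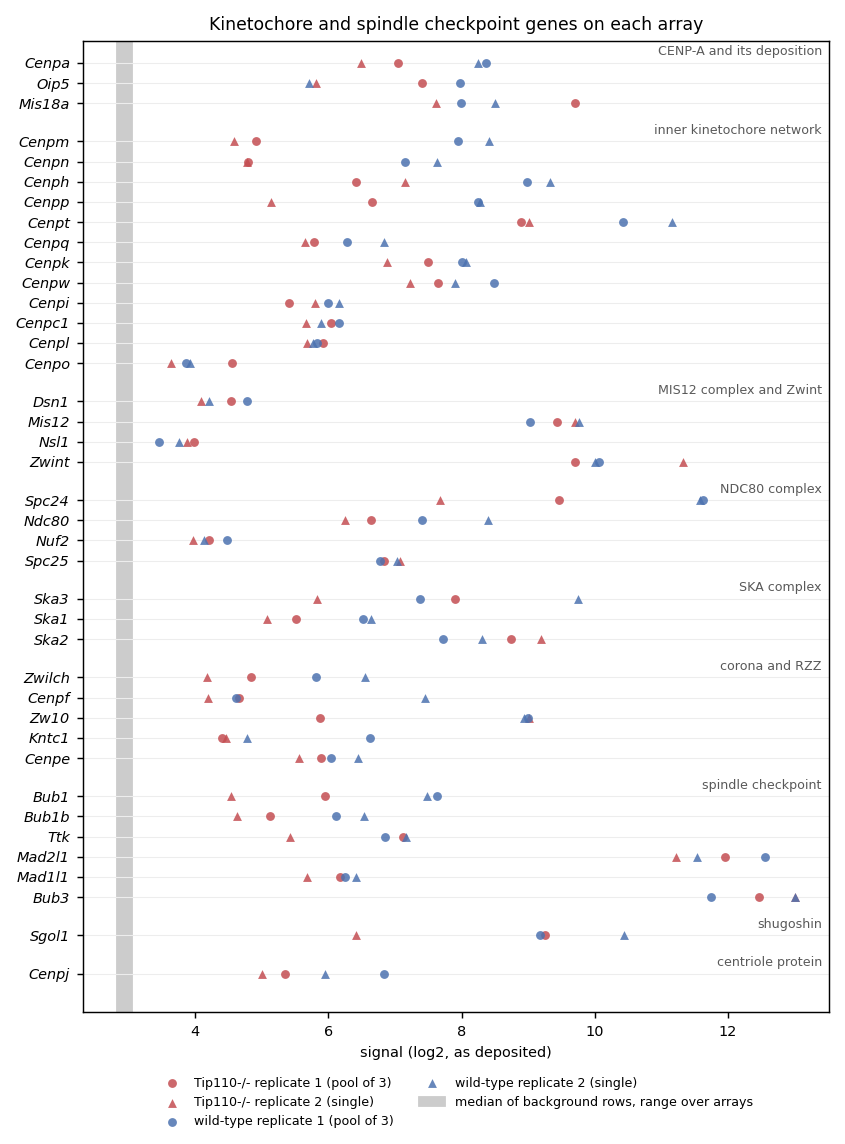
Signal of the 39 genes on each array, by complex and ordered within it by genotype difference (x axis, log2 signal as deposited; red, Tip110-/-; blue, wild-type; circles, pools of 3 outgrowths; triangles, single outgrowths). The grey band spans the array medians of the background rows, 2.82 to 3.05, and in 20 genes both red points lie left of both blue points.

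The result depends on how arrays are set to a common level. When each array was centred on the median of its positive control rows, a setting in which the median of all genes moved to 0.78, 6 members were lower and 1 was higher, against 1.68% and 8.01% of all genes. The 6 were Cenpm at -2.80, Spc24 at -2.40, Cenpn at -1.97, Cenph at -1.75, Cenpp at -1.73 and Bub1 at -1.69. Cenpm and Spc24 passed the adjusted threshold in that setting (limma adjusted p = 0.012 and 0.0373), as did 680 of all 30142 genes, or 2.26%, against 0 without that centring. Ska2 was the 1 higher, at 1.58. The other 7 no longer passed: Cenpt at -1.21, Zwilch at -1.05, Cenpa at -0.92, Ndc80 at -0.83, Bub1b at -0.82, Ska1 at -0.65 and Cenpj at -0.59. Quantile normalization, cyclic loess and centring on the median of all genes each left 13 of these 13 genes lower. In those 3 settings 5.49%, 5.87% and 6.05% of all genes were lower.

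Promoters of many cell division genes carry a cell cycle genes homology region, an element read by DREAM and MYB-MuvB complexes, and CCAAT boxes, which bind NF-Y. The letters TTTGAA or TTCGAA, and separately CCAAT, were searched on both strands in RefSeq windows of 250 bases before to 50 bases after the transcript start (GRCm38.p6). A window was held for 35 of the 39 genes; Spc24, Nsl1, Zwilch and Ska1 had none in the table. TTTGAA or TTCGAA was in 18 of the 35, 51.4%, beside 21.7% of the 27025 genes with a window and 20.2% of protein-coding ones. CCAAT was in 23 of the 35, 65.7%, beside 41.1% of all genes with a window and 42.3% of protein-coding ones. The letters were not confined to genes that were lower: TTTGAA or TTCGAA was in 6 of the 10 lower genes with a window and in 12 of the 25 that did not pass, and CCAAT in 6 of the 10 and 17 of the 25. Both kinds of letters were in 14 of the 35, beside 9.65% of all genes with a window. Neither kind was in the lower genes Cenpp, Cenpt and Cenpj, nor in Cenpo, Dsn1, Nuf2, Mad1l1 and Mad2l1, which did not pass. A match is a description of these letters and no evidence of binding.

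The following stretches, 150 bases before to 30 bases after the start, are shown because 4 belong to genes that were lower (Cenpm, Cenpn, Cenpa, Bub1) and 2 to genes that did not pass (Spc25, the partner of Spc24, and Bub3, the partner of Bub1), with the same letters in both kinds. Unlike most members with a window, each of these stretches holds both kinds of letters. They are written 5′ to 3′ on the gene's strand; capitals mark the searched letters, and a match on the opposite strand reads TTCAAA in place of TTTGAA and ATTGG in place of CCAAT.
Cenpm, chr15:82244307-82244486, minus strand: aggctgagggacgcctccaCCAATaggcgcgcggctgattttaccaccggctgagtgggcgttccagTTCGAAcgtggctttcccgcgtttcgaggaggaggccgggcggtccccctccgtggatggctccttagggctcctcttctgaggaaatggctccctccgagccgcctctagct
Cenpn, chr8:116921590-116921769, plus strand: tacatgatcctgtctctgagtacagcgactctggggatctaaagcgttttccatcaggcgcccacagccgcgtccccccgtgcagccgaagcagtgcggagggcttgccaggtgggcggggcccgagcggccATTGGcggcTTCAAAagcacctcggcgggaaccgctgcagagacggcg
Cenpa, chr5:30666736-30666915, plus strand: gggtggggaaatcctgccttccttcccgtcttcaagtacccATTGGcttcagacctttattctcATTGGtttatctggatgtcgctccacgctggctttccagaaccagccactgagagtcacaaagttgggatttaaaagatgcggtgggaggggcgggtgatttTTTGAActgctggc
Bub1, chr2:127831830-127832009, minus strand: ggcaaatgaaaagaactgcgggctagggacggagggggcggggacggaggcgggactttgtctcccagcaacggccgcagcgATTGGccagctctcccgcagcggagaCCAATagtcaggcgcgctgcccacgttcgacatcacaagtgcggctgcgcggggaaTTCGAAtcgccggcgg
Spc25, chr2:69206184-69206363, minus strand: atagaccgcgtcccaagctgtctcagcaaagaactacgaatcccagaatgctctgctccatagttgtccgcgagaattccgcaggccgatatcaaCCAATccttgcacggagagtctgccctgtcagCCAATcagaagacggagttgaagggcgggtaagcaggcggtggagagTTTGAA
Bub3, chr7:131560220-131560399, plus strand: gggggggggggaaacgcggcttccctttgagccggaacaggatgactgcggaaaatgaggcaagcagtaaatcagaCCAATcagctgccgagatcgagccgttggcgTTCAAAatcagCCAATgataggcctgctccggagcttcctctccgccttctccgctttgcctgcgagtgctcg

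**Figure D2:**
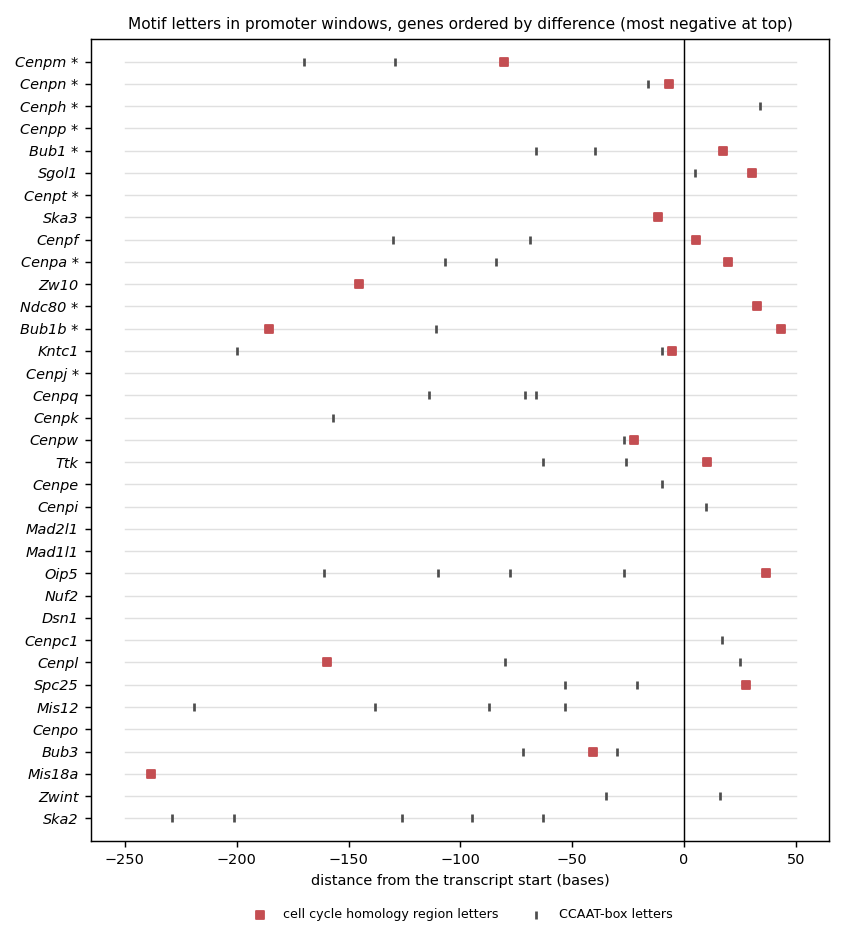
Positions of the searched letters in the first promoter window of 35 genes (x axis, distance from the transcript start in bases; red squares, TTTGAA or TTCGAA; dark ticks, CCAAT). Genes run from the most negative genotype difference at the top, stars mark genes lower at an unadjusted p under 0.05, and red squares occur among both starred and unstarred genes.

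At the centromere, Cenpa, the histone variant that marks it, was lower and the loading factors measured did not pass. Cenpa was at 7.04 and 6.49 in Tip110-/- and at 8.37 and 8.24 in wild-type. Both Tip110-/- arrays were below both wild-type arrays, by -1.55 ± 0.45 (SE; 2.92-fold lower, limma adjusted p = 0.345). Oip5, a subunit of the Mis18 complex that prepares centromeres for new CENP-A, was at 7.41 and 5.81 in Tip110-/- and at 7.98 and 5.71 in wild-type. Both pools were higher than both single outgrowths for Oip5, and the groups overlapped (difference -0.24 ± 0.94). Mis18a, another subunit of that complex, was at 9.70 and 7.61 in Tip110-/- and at 7.99 and 8.51 in wild-type, with the Tip110-/- arrays on both sides of the wild-type ones.

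The inner kinetochore network held 5 of the 13 lower genes among its 12 measured members, with a median difference of -0.85. Cenpm, whose protein lies in the CENP-H/I/K/M part of the network, was at 4.92 and 4.58 in Tip110-/- and at 7.94 and 8.42 in wild-type. This was the largest difference among the 39 genes, -3.43 ± 0.38 (SE), with an adjusted p of 0.284 in limma. Cenpn, which binds CENP-A nucleosomes directly together with CENP-L, was at 4.80 and 4.78 in Tip110-/- and at 7.15 and 7.63 in wild-type. Its difference was -2.60 ± 0.33 (limma adjusted p = 0.287). For both genes the gap between genotypes was several times the spread between arrays of one genotype. Their Tip110-/- signals came close to the medians of the negative control rows, 4.28 and 4.18 on those arrays, so no fold is given for either gene.

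Cenph, of the same part as Cenpm, was at 6.41 and 7.15 in Tip110-/- and at 8.99 and 9.32 in wild-type, a difference of -2.38 ± 0.51. Cenpp, of the CENP-O/P/Q/U part, was at 6.66 and 5.14 in Tip110-/- and at 8.25 and 8.27 in wild-type, a difference of -2.36 ± 0.61. Cenpt, whose protein carries NDC80 complexes on its own tail, was at 8.89 and 9.01 in Tip110-/- and at 10.43 and 11.15 in wild-type, a difference of -1.84 ± 0.55. In these 3 genes both Tip110-/- arrays were lower than both wild-type arrays (limma adjusted p = 0.332, 0.339 and 0.348).

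Partners of these genes differed less. Cenpl, the partner of Cenpn, was at 5.92 and 5.68 in Tip110-/- and at 5.83 and 5.78 in wild-type, a difference of -0.005 ± 0.28 with a 95% confidence interval of -0.73 to 0.72. The 2 Tip110-/- values of Cenpl bracketed the wild-type ones. Cenpc1, the blueprint protein that links CENP-A to MIS12, differed by -0.18 ± 0.32, with overlapping groups. Cenpq, Cenpk, Cenpw and Cenpi were lower in both Tip110-/- arrays without passing, at -0.85, -0.84, -0.75 and -0.47. Cenpo, at 4.56 and 3.64 in Tip110-/- and 3.87 and 3.92 in wild-type, was near background. The difference between one member and another was not tested in any complex.

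The MIS12 complex joins the inner kinetochore to the outer one. None of the 4 genes of this group, Zwint included, passed, and their median difference was 0.25. Mis12 was at 9.43 and 9.70 in Tip110-/- and at 9.02 and 9.77 in wild-type, and Dsn1 differed by -0.18 with overlapping groups, from low signal. Zwint, which ties the RZZ complex to the outer kinetochore, was at 9.70 and 11.32 in Tip110-/- and at 10.06 and 10.0 in wild-type. The single Tip110-/- outgrowth held the highest Zwint value and the Tip110-/- pool the lowest (difference 0.48 ± 0.71). Nsl1 was higher in both Tip110-/- arrays, at 3.99 and 3.88 against 3.45 and 3.76 in wild-type, from levels close to background (difference 0.33 ± 0.15).

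The NDC80 complex is a rod in which Ndc80 and Nuf2 bind the microtubule and Spc24 and Spc25 bind the inner side. Spc24 was at 9.47 and 7.67 in Tip110-/- and at 11.63 and 11.58 in wild-type, a difference of -3.03 ± 0.76 (SE), 8.18-fold lower (limma adjusted p = 0.339). The wild-type arrays differed by 0.04 for Spc24, and the Tip110-/- arrays lay apart with the single outgrowth lowest. Spc25, its obligate partner, was at 6.84 and 7.07 in Tip110-/- and at 6.78 and 7.03 in wild-type. Its groups overlapped, at 0.05 ± 0.38 with a 95% confidence interval of -0.93 to 1.04. Ndc80 was at 6.64 and 6.24 in Tip110-/- and at 7.40 and 8.40 in wild-type, a difference of -1.46 ± 0.52 (limma adjusted p = 0.380), which did not pass with the replicate number as a block. Nuf2 stayed between 3.97 and 4.47 on every array, near the negative control medians, and overlapped.

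The SKA complex, which tracks microtubule ends beside NDC80, had 1 gene lower among 3. Ska1 was at 5.52 and 5.08 in Tip110-/- and at 6.52 and 6.64 in wild-type, lower in both Tip110-/- arrays by -1.28 ± 0.32 (limma adjusted p = 0.339). Ska2 was at 8.74 and 9.20 in Tip110-/- and at 7.73 and 8.31 in wild-type, higher in both Tip110-/- arrays by 0.95 ± 0.53 without passing. Ska3 was at 7.90 and 5.84 in Tip110-/- and at 7.37 and 9.75 in wild-type. For Ska3 the pools showed a difference of 0.52 and the single outgrowths one of -3.91, so its mean of -1.69 ± 1.08 rests on the single outgrowths.

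**Figure D3:**
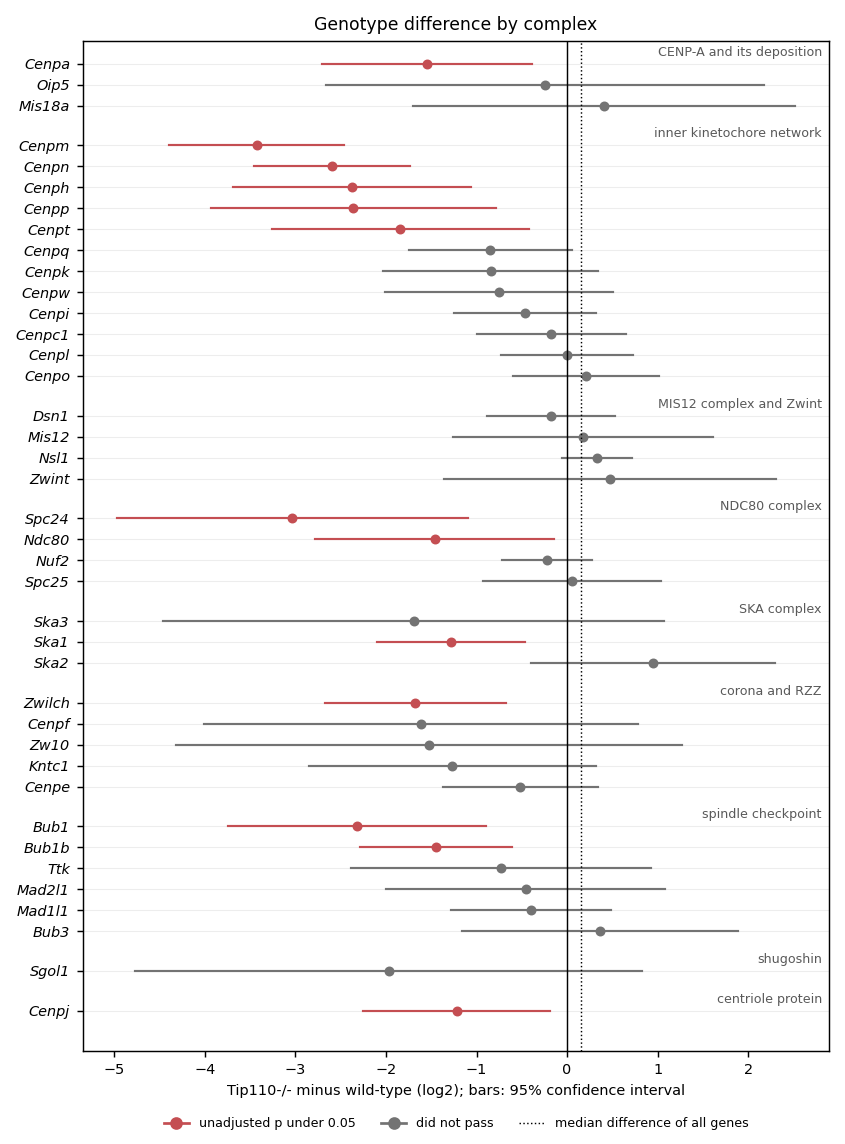
Genotype difference of each gene, Tip110-/- minus wild-type (x axis, log2), with its 95% confidence interval from limma; red marks an unadjusted p under 0.05 and the dotted line the median of all genes, 0.15. Within the NDC80 complex Spc24 stands at -3.03 and Spc25 at 0.05, and within the checkpoint Bub1 at -2.32 and Bub3 at 0.37.

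In the corona, the outermost layer that forms on unattached kinetochores, all 5 measured genes had negative differences and 1 passed. Zwilch, of the RZZ complex that brings dynein and MAD proteins, was at 4.84 and 4.18 in Tip110-/- and at 5.82 and 6.56 in wild-type, a difference of -1.68 ± 0.39 (limma adjusted p = 0.334). Tip110-/- signals of Zwilch, and of Kntc1 and Cenpf below, came close to the negative control medians, 4.28 and 4.18 on those arrays. The other RZZ subunits had differences that rested on 1 array. Zw10 was at 5.87 in the Tip110-/- pool and 9.01 in the single Tip110-/- outgrowth, against 9.0 and 8.94 in wild-type, so that its difference was 0.05 without Tip110-/- replicate 1 and -3.09 without Tip110-/- replicate 2. Kntc1 was at 4.40 and 4.46 in Tip110-/- and at 6.62 and 4.78 in wild-type, and its difference was -0.35 without wild-type replicate 1 and -2.19 without wild-type replicate 2. Cenpf, a large coiled-coil protein of the corona, was at 4.66 and 4.19 in Tip110-/- and at 4.61 and 7.46 in wild-type, and its difference was -3.03 without wild-type replicate 1 and -0.19 without wild-type replicate 2. Cenpe, the kinesin that carries chromosomes to the equator, was at 5.90 and 5.56 in Tip110-/- and at 6.04 and 6.45 in wild-type, the smallest difference of the layer at -0.52 ± 0.33.

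Among the 6 spindle checkpoint genes, Bub1 and Bub1b were lower and 4 genes did not pass. Bub1, the kinase that builds the checkpoint platform and marks centromeric chromatin for shugoshin, was at 5.96 and 4.53 in Tip110-/- and at 7.64 and 7.49 in wild-type. Both Tip110-/- arrays were lower, by -2.32 ± 0.56 (SE) (limma adjusted p = 0.334). Bub1b, which encodes BubR1 of the mitotic checkpoint complex, was at 5.12 and 4.63 in Tip110-/- and at 6.11 and 6.54 in wild-type, a difference of -1.45 ± 0.33 (limma adjusted p = 0.333). In the single Tip110-/- outgrowth the signals of Bub1 and Bub1b, 4.53 and 4.63, came close to the negative control median of that array, 4.18. Bub3, the adaptor that the proteins of both genes bind, was at 12.47 and 13.01 in Tip110-/- and at 11.75 and 13.0 in wild-type. The Bub3 groups overlapped, at 0.37 ± 0.59 with a 95% confidence interval of -1.16 to 1.89.

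Mad2l1, the protein that inhibits Cdc20 at unattached kinetochores, was at 11.96 and 11.22 in Tip110-/- and at 12.55 and 11.54 in wild-type, with overlapping groups. Mad1l1, its kinetochore anchor, was at 6.18 and 5.68 in Tip110-/- and at 6.25 and 6.41 in wild-type, lower in both Tip110-/- arrays without passing (difference -0.40 ± 0.34). Ttk, the kinase that starts the signal, was at 7.12 and 5.42 in Tip110-/- and at 6.85 and 7.16 in wild-type. The low value of Ttk was in the single Tip110-/- outgrowth, and the difference was -1.59 without Tip110-/- replicate 1 and 0.12 without Tip110-/- replicate 2. Sgol1, the shugoshin that protects centromeric cohesion, had the same shape, at 9.26 and 6.42 in Tip110-/- and 9.18 and 10.44 in wild-type. Its difference was -1.97 ± 1.09, with -3.39 without Tip110-/- replicate 1 and -0.55 without Tip110-/- replicate 2. Cenpj, whose symbol is of the CENP series but whose protein builds centrioles, was at 5.35 and 5.00 in Tip110-/- and at 6.83 and 5.96 in wild-type, lower in both Tip110-/- arrays by -1.22 ± 0.40 (limma adjusted p = 0.367).

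The genes differed in the number of settings in which they passed. Leaving out an array leaves a single array in a group and lowers precision. A gene can then stop passing though its difference does not shrink. Of the differences listed here without an array, some were larger than with all arrays and others smaller. Cenph, Cenpm and Cenpn passed in 16 of 16 alternative settings, and Cenpp, Spc24, Bub1 and Bub1b in 15. Without Tip110-/- replicate 2, Cenpa was at -1.27, Cenpj at -1.05, Cenpt at -1.90, Ndc80 at -1.26 and Ska1 at -1.06, none of them past an unadjusted p of 0.05. Without Tip110-/- replicate 1, Cenpj at -1.39, Cenpt at -1.78 and Ndc80 at -1.66 did not pass. Without wild-type replicate 1, Cenpa at -1.48 and Cenpj at -0.78 did not pass, and without wild-type replicate 2, Cenpa at -1.61, Cenpt at -1.48 and Ndc80 at -0.96 did not. The sign of the 13 differences was negative in every setting tried. In all 13 both Tip110-/- arrays lay below both wild-type arrays. Leaving out an array, or changing the variance prior, weights or block, therefore could not turn the sign. Only the other normalizations and centrings could have done so.

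The single Tip110-/- outgrowth lay below the Tip110-/- pool in 29 of the 39 genes, with a median difference of pool minus single of 0.40. In wild-type the single outgrowth lay below the pool in 14 of the 39, and the median was -0.16. Over protein-coding genes above the median row these medians were 0.003 in Tip110-/- and 0.04 in wild-type. Set side by side, the pools differed between genotypes by a median of -0.51 and the single outgrowths by -0.90 over the 39 genes. Among the 13 lower genes these medians were -1.54 and -2.18. In all 13 both Tip110-/- arrays lay below both wild-type arrays. A lower signal in both forms follows from that and is no separate support.

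A list of 20 other genes of kinetochore and checkpoint function was taken beside the 39, and 19 of them were measured. At an unadjusted p under 0.05, 5 were lower, 1 was higher and 13 did not pass, with a median of -0.53. Over all genes tested, 3.67% were lower and 8.99% higher by that rule. Cdc20, the activator of the anaphase-promoting complex that the checkpoint blocks, was at 7.70 and 5.74 in Tip110-/- and at 11.19 and 11.06 in wild-type, a difference of -4.41 ± 0.79. Gsg2, which encodes the kinase Haspin that marks histone H3 at centromeres, was at 8.05 and 6.00 in Tip110-/- and at 9.69 and 10.83 in wild-type, a difference of -3.24 ± 0.88. Of the chromosomal passenger complex, which corrects wrong attachments, Aurkb differed by -2.78 ± 0.45 and Birc5 by -1.49 ± 0.38. Its subunits Incenp and Cdca8 had overlapping groups, at -0.53 and -0.38. Kif2c, the kinesin that takes microtubules apart at centromeres, differed by -1.08 ± 0.36. Mad2l1bp, which helps to silence the checkpoint, was higher, at 5.30 and 5.75 in Tip110-/- outgrowths, against 4.94 and 4.38 in wild-type. Its lower wild-type signal, 4.38, was close to the negative control median of that array, 4.03. These 6 genes had limma adjusted p-values of 0.293 to 0.384 and none passed.

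Markers of cell types differed between the genotypes as well. Of 12 pluripotent epiblast genes 10 were lower and 0 higher, with list medians of 7.81 and 5.51 in Tip110-/- outgrowths, against 10.0 and 9.70 in wild-type. The list drawn up for trophoblast giant cells also holds genes of other placental layers. Of its 10 measured genes 6 were higher and 0 lower, with medians of 8.96 and 11.19 in Tip110-/- outgrowths, against 7.86 and 5.22 in wild-type. The 6 included the prolactin-family genes Prl5a1 at 5.64 and Prl8a9 at 5.53, known from the spongiotrophoblast. The others were Cts7 at 5.70, Mmp9 at 1.41, Plet1 at 0.98 and Psg17 at 0.78. Cts7 was at 12.28 and 14.54 in Tip110-/- and at 10.93 and 4.48 in wild-type, so the size of its difference rests largely on 1 wild-type array. The giant cell genes Prl2c2, at 0.69, and Hand1, at 0.25, had overlapping groups and did not pass. Of 7 measured proliferation genes outside the kinetochore, Mki67 at -4.80 and Top2a at -3.99 were lower and 5 did not pass, among them Pcna at -0.59; in all 7 both Tip110-/- arrays lay below both wild-type arrays. None of 9 measured primitive endoderm genes passed. The 4 fibroblast genes stayed between 3.42 and 4.38, near background, on every array. The part of these markers in the differences of the kinetochore genes was not tested.

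**Figure D4:**
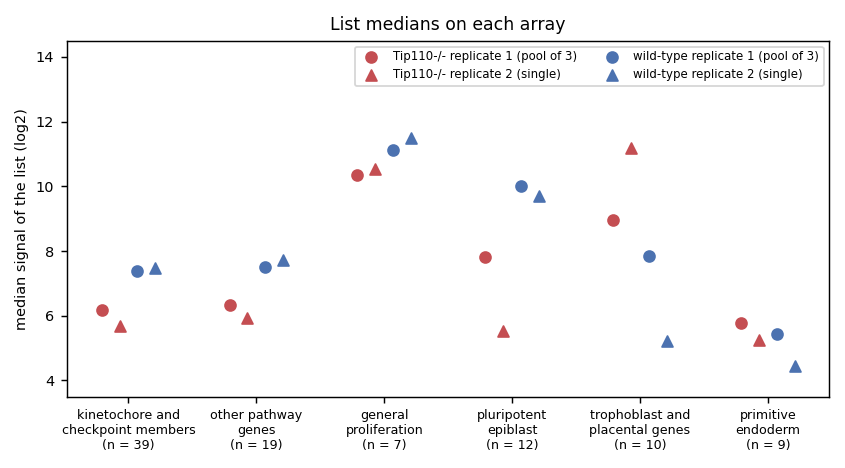
Median log2 signal of each list on each array (red, Tip110-/-; blue, wild-type; circles, pools; triangles, single outgrowths; n, genes with a row). The kinetochore and checkpoint genes have medians of 6.18 and 5.68 in Tip110-/- outgrowths, against 7.37 and 7.49 in wild-type, the epiblast list is lower on both Tip110-/- arrays, and the list of trophoblast and placental genes is higher.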

How the data were processed

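RNA of 4 outgrowth samples was hybridised to Affymetrix whole-transcript mouse arrays. The deposited table holds log2 signal for 72688 rows; the authors used Affymetrix Expression Console and Transcriptome Analysis Console, per the submitters' processing notes, and no normalization algorithm or genome build is stated by these sources. That the values are log2 was read from their range, and the table has no detection calls. Platform annotation gave 30604 rows 1 symbol, 2146 several and 33206 none; of a gene's rows the one with the highest mean was kept, leaving 30142 genes, with symbols updated by Entrez ID where possible.

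Genotype was fitted with limma 3.58.1 in R 4.3.3 (lmFit, eBayes with an intensity trend), two-sided, Benjamini-Hochberg over 30142 genes, threshold 0.05, with no filter; it was tested on simulated data. Plots used Python 3.11.15. The members, role groups and other lists were chosen with earlier results of these data known. Values by array are given for members at an unadjusted p under 0.05 and for the largest and smallest difference in each role group; other members named were chosen after their values were seen. Of other pathway genes, those at an unadjusted p under 0.05 were named; Incenp and Cdca8 were added after their values were seen. Alternatives were other normalizations and centrings, a filter on dim rows, other variance priors, array weights, a replicate block, other use of a gene's rows, and each array left out. The labels call replicates biological and state no shared litter or day; with 2 arrays per group the number of arrays limits the precision.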

Additional observations from a re-analysis of the deposited data

How the results depend on the processing

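Over 16 alternative settings, 553 of 622 recomputed member differences kept direction and side of the unadjusted threshold, 27 no longer passed, 12 came to pass, and 30, in 17 members that passed in neither setting, changed sign. Settings that changed only the row filter, variance prior, weights, block or use of a gene's rows could not turn a member's direction, and each measured member had 1 row. With all arrays kept, the count of lower members, 13, was 12 to 15 under other settings, beside 3.55% to 6.05% of the genes fitted. The exceptions were 6 with centring on positive control rows and 7 with no moderation, beside 1.68% and 2.57%. The count was smaller without any single array, which leaves a single array in a group. Centring on positive control rows also gave 1 higher member, 2 past the adjusted threshold, 8 with both Tip110-/- arrays below and 7 above both wild-type arrays, and a median of -0.21. The median of all genes in that setting was 0.78. The count higher was 1 with no intensity trend and 0 to 1 without single arrays; the count past the adjusted threshold was 0 without any single array. Members with both Tip110-/- arrays above numbered 1 under quantile normalization, array-median centring, cyclic loess and the filter on dim rows. Without single arrays the counts were 3 to 6 above and 22 to 31 below, with fewer arrays to separate. For these counts above and below in the alternative settings, the matching shares of all genes were not computed. The median was -1.04 to -0.55 without single arrays, and relative to all genes -1.15 to -0.71; relative to all genes it was -0.70 with quantile normalization. The causes were not tested. Over all genes, centring on the array median turned 2711 higher and 1106 lower into 911 and 1825, and centring on positive control rows into 2415 and 506. With the replicate number as a block 12 members were lower, Ndc80 no longer passing; the pool-minus-single differences of the genotypes correlated over genes at -0.0903, and the same number marks the pooled arrays in both genotypes.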

Other observations

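A row annotated with the symbol Sgol2 alone carries the Entrez ID of the listed gene Sgol2a, a shugoshin, and was kept out of the counts because its symbol differs. It was at 6.68 and 7.25 in Tip110-/- and at 7.19 and 8.38 in wild-type, a difference of -0.82 ± 0.58 (SE) with overlapping groups. Its neighbour in function Sgol1 differed by -1.97 ± 1.09, also with overlapping groups. Casc5, which encodes the KNL1 scaffold on which BUB proteins gather, was at 5.16 and 4.20 in Tip110-/- and at 5.24 and 8.77 in wild-type, so that 1 wild-type array sets its difference of -2.33 ± 1.19.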
